A study of Mus musculus with 31 samples.

Results

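Genes of the CCN family and of the YAP and TAZ branch of Hippo signalling were followed while mouse embryonic fibroblasts (MEFs) were reprogrammed. They were 5 CCN genes and 4 genes of that branch. Ccn6, also on the array, was not a member and is given with the relatives below. The members were picked by name: Ccn1 (formerly Cyr61), Ccn2 (Ctgf), Ccn3 (Nov), Ccn4 (Wisp1), Ccn5 (Wisp2), Ankrd1, Amotl2, Yap1 and Wwtr1, the gene of TAZ. All 9 were found among the 19938 genes with a symbol of their own, each on 1 row of the table. One arm received retroviruses for all 4 factors, c-Myc together with Oct4, Sox2 and Klf4 (4F, 16 arrays), and a second arm the same without c-Myc (3F, 4 arrays). In 1 label the 3F arm is said to have received 4 factors although 3 are listed, so the arm was taken from the titles. The controls carried GFP virus (9 arrays) or no virus at day 0 (2 arrays). All were MEFs kept in DMEM with foetal bovine serum, and total RNA of the whole culture was hybridised to single-colour Affymetrix whole-transcript arrays. Day 0, the 4F days 1 to 6 and 8, and the GFP days 1, 3, 5 and 8 have 2 arrays each. The other 7 groups have 1 array and no replicate error: days 10 and 12 of 4F, day 12 of GFP and all of 3F (days 3, 5, 8 and 12). The titles call the paired arrays biological replicates, without saying whether they came from separate embryos, MEF isolations or infections. The p-values measure the spread between these replicates. The labels name neither the strain nor the share of infected cells. Values are log2 signals, in which a difference of 1 is a doubling, and they cannot set 1 gene's level against another's.

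CCN proteins are secreted matricellular proteins that bind integrins, heparan sulfate proteoglycans and LRP receptors and shape how cells respond to matrix and growth factors. YAP and TAZ are transcriptional coactivators without DNA-binding domains of their own. The LATS kinases of the Hippo pathway phosphorylate them and keep them in the cytoplasm, and in the nucleus they act mainly through TEAD factors. Ccn1, Ccn2, Ankrd1 and Amotl2 are among the genes most used to read out that activity, and in fibroblasts they are known to follow serum, cell shape and the stiffness of the substrate. Ccn1 and Ccn2 are also known targets of SRF, the serum response factor, with its MRTF coactivators. Ccn4 and Ccn5 were first described as WNT1-induced genes.

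The members fell into sets that differed in what they followed. Ccn4 and Ccn5 followed the arm: every 4F array lay below every GFP array. Ccn3 and Ccn5 were higher on day 8 than on day 0 in GFP cultures and not in 4F cultures. Ccn1, Ccn2, Ankrd1 and Amotl2 had correlated signals over the groups and between paired arrays, and of these 4 only Amotl2 passed the test over the days of the 4F series. Yap1 and Wwtr1 varied least. Over the 31 arrays Yap1 spanned 0.48 (9.06 to 9.54) and Wwtr1 0.96 (8.93 to 9.89), against spans from 2.83 for Amotl2 to 5.46 for Ccn2 among the other members.

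**Figure D1:**
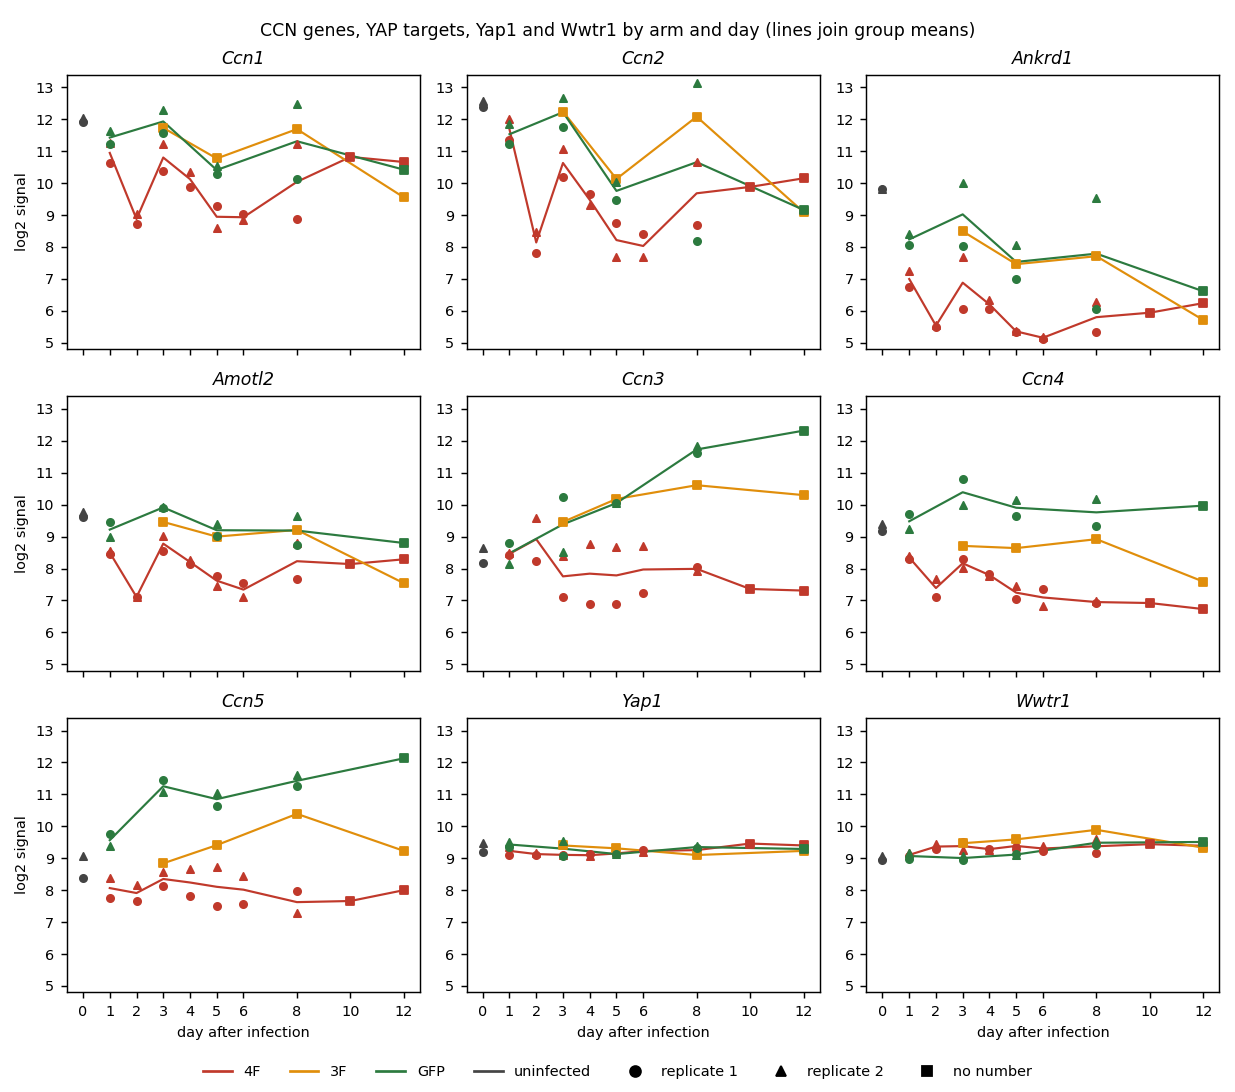
Log2 signal of each member (vertical axis, same scale in every panel) against day after infection (horizontal axis), with 1 point per array, coloured by arm and shaped by replicate label, and lines through group means. Ccn4 and Ccn5 of 4F stay below GFP on every shared day, Ccn1 and Ccn2 of 4F dip on day 2 and on days 5 and 6, and Yap1 and Wwtr1 stay within 0.48 and 0.96 over all arrays.

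With days 1, 3, 5 and 8 averaged, 6 of the 9 members were lower in 4F than in GFP and none was higher. Throughout, a gene passed where limma gave an adjusted p (Benjamini-Hochberg, over the 19938 genes) under 0.05. Of all genes, 37.4% passed in this comparison, 18.8% higher and 18.7% lower. The median difference was -1.10 over the members and -0.03 over all genes. The 6 were Ccn5 (-2.74 ± 0.21, log2 difference ± SE, adjusted p = 1.3e-07), Ccn4 (-2.21 ± 0.15, adjusted p = 4.3e-08), Ccn3 (-1.91 ± 0.37, adjusted p = 0.00065), Ankrd1 (-1.89 ± 0.42, adjusted p = 0.0022), Amotl2 (-1.10 ± 0.16, adjusted p = 6.1e-05) and Ccn1 (-1.09 ± 0.34, adjusted p = 0.02). Ccn2 (-0.99 ± 0.53, adjusted p = 0.17), Yap1 (-0.12 ± 0.07, adjusted p = 0.18) and Wwtr1 (0.14 ± 0.07, adjusted p = 0.11) did not pass. Single arrays decided 4 of these calls, in fits that leave the replicate numbers unbalanced between the arms. Ccn1 missed the threshold without 4F day 3 replicate 1 (-0.98, adjusted p = 0.053), and Ccn2 passed without GFP day 8 replicate 1 (-1.61, adjusted p = 0.00069). Yap1 passed without GFP day 3 replicate 1 (-0.18, adjusted p = 0.017), and Wwtr1 passed without 4F day 8 replicate 1 (0.20, adjusted p = 0.012). Because RNA came from whole cultures, fewer cells of a type and less RNA per cell cannot be told apart in any of these values.

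Day by day, no member passed on day 1, when 1.81% of all genes did (1.42% higher and 0.391% lower in 4F). On day 3, Ccn4, Ccn5 and Amotl2 passed, all lower in 4F, while 11.9% of all genes passed (6.28% higher and 5.65% lower). On day 5 and again on day 8, Ccn3, Ccn4, Ccn5 and Amotl2 passed, all lower in 4F. The shares of all genes were 21.4% on day 5 (10.5% higher and 10.9% lower) and 27.6% on day 8 (14.5% higher and 13% lower). Per the labels, the labelling reaction took 120 ng of RNA for replicate 1 and 300 ng for every other array, so the replicate number also separates RNA inputs. With the replicate number as a block, Ccn5 also passed on day 1 (adjusted p = 0.031, range over all alternatives 0.031 to 0.59). Ankrd1 then passed on day 3 (0.035, range 0.035 to 0.55), day 5 (0.021, range 0.021 to 0.36) and day 8 (0.028, range 0.0015 to 0.85), and Wwtr1 passed as higher on day 3 (0.036, range 0.036 to 0.45).

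**Figure D2:**
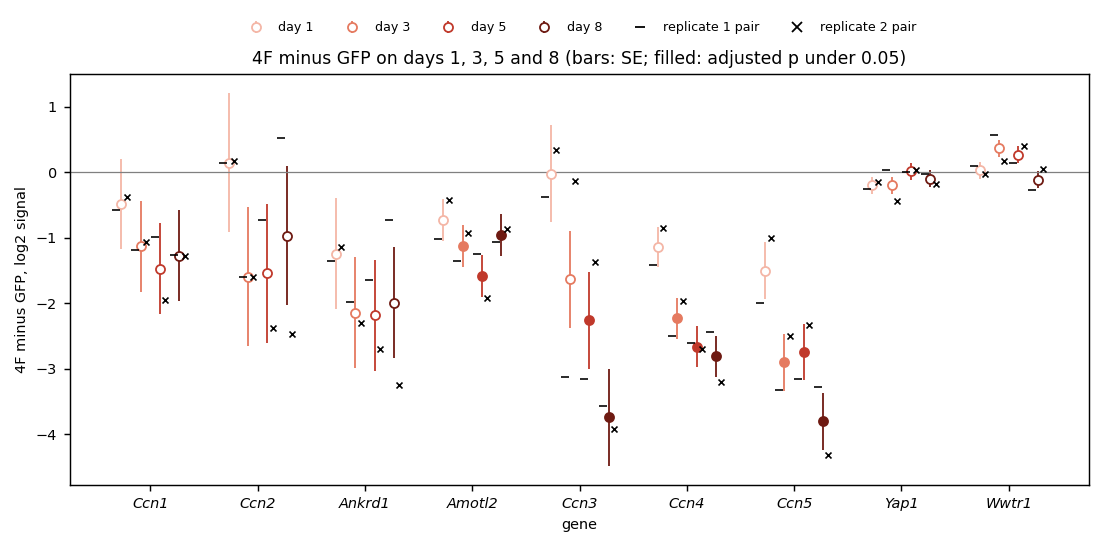
Difference 4F minus GFP in log2 signal (vertical axis) on days 1, 3, 5 and 8 for each member (horizontal axis), with circles for the estimate, bars for its SE, filled circles for an adjusted p under 0.05, and a dash and a cross for the replicate 1 and replicate 2 pair. The day 8 pairs of Ccn2 stand at 0.52 and -2.47, on both sides of 0, whereas both pairs of Ccn4 and Ccn5 lie below 0 on all 4 days.

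Ccn4, a secreted WNT-induced member of the family, separated the arms most cleanly. In 4F it read 8.30 and 8.39 on day 1, 7.11 and 7.67 on day 2, 8.30 and 8.03 on day 3, 7.82 and 7.77 on day 4, and 7.04 and 7.45 on day 5. It then read 7.35 and 6.84 on day 6, 6.91 and 6.99 on day 8, 6.92 on day 10 and 6.73 on day 12 in 4F. The GFP arrays read 9.72 and 9.24 on day 1, 10.79 and 9.99 on day 3, 9.66 and 10.15 on day 5, 9.33 and 10.19 on day 8 and 9.97 on day 12. The 16 4F arrays (6.73 to 8.39) thus lay below all 9 GFP arrays (9.24 to 10.79) and below both day 0 arrays (9.19 and 9.41). The difference from GFP was -1.14 ± 0.31 on day 1 (adjusted p = 0.08), -2.23 ± 0.31 on day 3 (0.00027), -2.66 ± 0.31 on day 5 (3.1e-05) and -2.81 ± 0.31 on day 8 (7.8e-06, 7.04-fold lower in 4F). Within the 4F series Ccn4 changed over days 1 to 8 (F = 6.16, adjusted p = 0.039), where 6.16% of all genes passed. That call was lost in 10 of the 14 fits that left out 1 array of the series, with adjusted p up to 0.16, the value without 4F day 1 replicate 2. On day 8, 4F stood 2.35 ± 0.31 below day 0 (6.95 and 9.30 on average, adjusted p = 9.3e-05, 5.11-fold lower). GFP on day 8 did not differ from day 0 beyond the spread (0.46 ± 0.31, adjusted p = 0.37).

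The order of the 19 group means of Ccn4 ran by arm. All 5 GFP groups came first (10.39 on day 3 to 9.48 on day 1), then day 0 (9.30), 3F on days 8, 3 and 5 (8.92, 8.71 and 8.64) and 4F on days 1, 3 and 4 (8.34, 8.17 and 7.80). Next came 3F on day 12 (7.59) and the other 4F days (7.39 on day 2 to 6.73 on day 12). Among neighbours with 2 arrays each, GFP on days 5, 8 and 1 and day 0 had overlapping arrays, as did 4F on days 2, 5, 6 and 8. The arrays of 4F on days 1, 3 and 4 did not overlap between neighbours.

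Ccn5, which lacks the C-terminal cystine knot of its relatives, differed most from GFP. In 4F it read 7.76 and 8.37 on day 1, 7.66 and 8.16 on day 2, 8.12 and 8.58 on day 3, 7.81 and 8.67 on day 4, and 7.49 and 8.72 on day 5. It read 7.58 and 8.45 on day 6, 7.97 and 7.28 on day 8, 7.66 on day 10 and 8.00 on day 12 in 4F. GFP arrays read 9.76 and 9.37 on day 1, 11.44 and 11.07 on day 3, 10.65 and 11.05 on day 5, 11.25 and 11.60 on day 8 and 12.13 on day 12. Here too no 4F array (7.28 to 8.72) reached the lowest GFP array (9.37), but 4F overlapped day 0 (8.39 and 9.06). The difference from GFP was -1.5 ± 0.43 on day 1 (adjusted p = 0.1), -2.90 ± 0.43 on day 3 (0.00044), -2.74 ± 0.43 on day 5 (0.00032) and -3.80 ± 0.43 on day 8 (1e-05, 13.9-fold lower in 4F). GFP on day 8 was 2.70 ± 0.43 above day 0 (adjusted p = 0.00034, 6.5-fold higher), whereas 4F on day 8 stood 1.10 ± 0.43 below it (adjusted p = 0.11, and 0.042 with the replicate block, range 0.042 to 0.49). The group order was GFP on days 12, 8, 3 and 5 (12.13 to 10.85), 3F on day 8 (10.39), GFP on day 1 (9.57), 3F on days 5, 12 and 3 (9.41, 9.23 and 8.84), day 0 (8.72) and then all 4F groups (8.35 to 7.63). From day 0 down to 4F on day 6, every neighbouring pair of groups overlapped.

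Ccn3, a CCN protein known to restrain the growth of many cell types, had a wider spread between paired arrays. In 4F it read 8.42 and 8.5 on day 1, 8.25 and 9.59 on day 2, 7.11 and 8.4 on day 3, 6.90 and 8.78 on day 4, and 6.89 and 8.68 on day 5. It read 7.24 and 8.70 on day 6, 8.05 and 7.93 on day 8, 7.36 on day 10 and 7.31 on day 12 in 4F. In GFP it read 8.81 and 8.15 on day 1, 10.24 and 8.53 on day 3, 10.05 and 10.05 on day 5, 11.61 and 11.85 on day 8 and 12.32 on day 12. The arms overlapped on day 1 and were apart on every later shared day, although the replicate 2 arrays of day 3 differed by only -0.13. Replicate 2 exceeded replicate 1 by 1.28 to 1.88 in 4F on days 2 to 6, the same arrays on which Ccn5 was 0.46 to 1.23 higher in replicate 2. The difference from GFP was -0.02 ± 0.74 on day 1 (adjusted p = 1), -1.63 ± 0.74 on day 3 (0.19), -2.26 ± 0.74 on day 5 (0.04) and -3.74 ± 0.74 on day 8 (0.0012, 13.3-fold lower in 4F). The day 5 call was lost without 4F replicate 1 (-1.37, adjusted p = 0.4), without GFP replicate 1 (-2.26, 0.13) and without GFP replicate 2 (-2.26, 0.14). GFP on day 8 was 3.32 ± 0.74 above day 0 (adjusted p = 0.0043), and 4F on day 8 stood 0.42 ± 0.74 below it (adjusted p = 0.83). The group order began with GFP on days 12 and 8 (12.32 and 11.73), 3F on days 8, 12 and 5 (10.61, 10.30 and 10.18) and GFP on day 5 (10.05). It ended with day 0 (8.4) and 4F on days 3 to 12 (7.99 to 7.31). GFP on days 3 and 1, 4F on days 2 and 1 and day 0 overlapped as neighbours, and so did 4F on days 3, 4, 5, 6 and 8.

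Over time in GFP, Ccn3 (F = 6.89, adjusted p = 0.044) and Ccn5 (F = 7.69, adjusted p = 0.032) were the members that changed over days 1 to 8, where 9.53% of all genes did. Leaving out 1 GFP array ended the Ccn3 call in 6 of 8 fits (adjusted p up to 0.17 without an array of day 8) and the Ccn5 call in 5 of 8 (up to 0.24 without GFP day 1 replicate 2). Wwtr1 passed there with the replicate block (F = 6.93, adjusted p = 0.031, range 0.022 to 0.4). In 4F over the same days neither gene passed (Ccn3 F = 0.68, Ccn5 F = 0.60, both adjusted p = 1). Against day 0, the members that passed on day 8 in GFP were Ccn3, Ccn5 and Wwtr1, all higher, where 20.1% of all genes passed (8.92% higher and 11.2% lower).

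Ccn1 and Ccn2, secreted integrin ligands induced early by serum, read lower on day 2 of the 4F series than on days 1 and 3, although neither passed the test over days. Ccn2 in 4F read 11.35 and 12.01 on day 1, 7.82 and 8.46 on day 2, 10.18 and 11.08 on day 3, 9.65 and 9.30 on day 4, and 8.76 and 7.67 on day 5. It read 8.39 and 7.67 on day 6, 8.70 and 10.66 on day 8, 9.88 on day 10 and 10.15 on day 12 in 4F. The GFP arrays read 11.21 and 11.85 on day 1, 11.77 and 12.67 on day 3, 9.47 and 10.04 on day 5, 8.19 and 13.12 on day 8 and 9.16 on day 12, and day 0 read 12.39 and 12.56. The day 2 pair lies below the day 1 and day 3 pairs by more than the gap within any of the 3 pairs, and GFP was not sampled on day 2. In 4F the test over days gave F = 3.44 for Ccn2 (adjusted p = 0.2) and F = 3.42 for Ccn1 (0.2, and 0.048 with the replicate block, range 0.0026 to 0.5). With the day 8 arrays of replicate 2 left out, a setting chosen after seeing the data, both passed (Ccn2 F = 19.7, adjusted p = 0.0011, and Ccn1 F = 15.5, adjusted p = 0.0026).

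Ccn1 followed Ccn2. In 4F it read 10.63 and 11.26 on day 1, 8.72 and 9.03 on day 2, 10.37 and 11.23 on day 3, 9.89 and 10.36 on day 4, and 9.29 and 8.60 on day 5. It read 9.03 and 8.83 on day 6, 8.87 and 11.21 on day 8, 10.82 on day 10 and 10.66 on day 12 in 4F. The 9 GFP arrays read 11.21 and 11.64 on day 1, 11.56 and 12.30 on day 3, 10.27 and 10.55 on day 5, 10.14 and 12.48 on day 8 and 10.42 on day 12, and day 0 read 11.90 and 12.04. In both replicate pairs of every shared day Ccn1 was lower in 4F, by 0.38 to 1.95. On single days the difference ranged from -0.48 ± 0.69 on day 1 to -1.47 ± 0.69 on day 5 (adjusted p = 0.16) and did not pass. By day 12 the single 4F array (10.66) read above the single GFP array (10.42), and likewise for Ccn2 (10.15 in 4F and 9.16 in GFP).

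Day 0 headed the order of group means for both genes (11.97 for Ccn1 and 12.48 for Ccn2). 4F on days 5, 6 and 2 closed it (8.94, 8.93 and 8.88 for Ccn1, and 8.21, 8.03 and 8.14 for Ccn2). Those 3 groups overlapped for Ccn1, so their order is within the spread. GFP on day 8 (11.31 for Ccn1 and 10.65 for Ccn2) overlapped its replicated neighbours, since its own arrays lay 2.35 and 4.93 apart.

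Ankrd1, a stress-responsive ankyrin repeat protein of muscle and fibroblasts, was the member that fell furthest from day 0. In 4F it read 6.73 and 7.26 on day 1, 5.50 and 5.57 on day 2, 6.06 and 7.70 on day 3, 6.07 and 6.33 on day 4, and 5.34 and 5.37 on day 5. It read 5.13 and 5.18 on day 6, 5.33 and 6.27 on day 8, 5.94 on day 10 and 6.24 on day 12 in 4F. In GFP the gene read 8.07 and 8.4 on day 1, 8.04 and 10.00 on day 3, 6.99 and 8.07 on day 5, 6.06 and 9.52 on day 8 and 6.61 on day 12, and both day 0 arrays read 9.82. On days 1, 3 and 5 the arms did not overlap, and on day 8 GFP replicate 1 (6.06) lay between the 4F arrays. Against GFP the difference was -1.24 ± 0.85 on day 1 (adjusted p = 0.65), -2.14 ± 0.85 on day 3 (0.13), -2.18 ± 0.85 on day 5 (0.086) and -1.99 ± 0.85 on day 8 (0.1). On day 8, 4F stood 4.02 ± 0.85 below day 0 (adjusted p = 0.0039). Its 4F mean that day, 5.80, lies below the median signal of every array (6.04 to 6.17), so the true distance may be larger and no fold is given. On day 1 it was already 2.83 ± 0.85 below (adjusted p = 0.2, and 0.042 with the replicate block, range 0.042 to 0.81). GFP on day 8 was 2.03 ± 0.85 below day 0 (adjusted p = 0.12, and 0.032 with the block, range 0.0019 to 0.91), with differences of -3.76 between the replicate 1 arrays and -0.30 between those of replicate 2.

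Amotl2, an angiomotin relative that binds YAP and is itself a YAP target, had the same course with smaller steps. In 4F it read 8.44 and 8.56 on day 1, 7.10 and 7.12 on day 2, 8.55 and 9.01 on day 3, 8.14 and 8.27 on day 4, and 7.78 and 7.46 on day 5. It read 7.56 and 7.12 on day 6, 7.67 and 8.79 on day 8, 8.14 on day 10 and 8.29 on day 12 in 4F. In GFP the values were 9.46 and 8.98 on day 1, 9.90 and 9.93 on day 3, 9.02 and 9.38 on day 5, 8.73 and 9.65 on day 8 and 8.80 on day 12, and day 0 read 9.60 and 9.78. It changed over days 1 to 8 of 4F (F = 7.34, adjusted p = 0.022). That call was lost without either array of day 1, either array of day 2 or 4F day 3 replicate 2 (adjusted p from 0.06 to 0.071). Against GFP the difference was -0.72 ± 0.32 on day 1 (adjusted p = 0.37), -1.13 ± 0.32 on day 3 (0.034), -1.58 ± 0.32 on day 5 (0.0025) and -0.96 ± 0.32 on day 8 (0.039). The day 3 call was lost without any 1 of its 4 arrays (adjusted p from 0.051 to 0.24). The day 8 call was lost without 4F replicate 1 (-0.40, adjusted p = 0.46) or GFP replicate 2 (-0.50, 0.36).

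Promoter letters were compared because Ccn1, Ankrd1 and Amotl2 moved together and TEAD factors bind a known motif. RefSeq promoter windows on GRCm38.p6 were searched for 5 members, Ccn1, Ankrd1, Amotl2, Yap1 and Wwtr1. Ccn2, Ccn3, Ccn4 and Ccn5 were not searched. The motif searched on both strands was GGAATG, which reads CATTCC on the other strand, in the 250 bases before the start. It was found in all 5, against 2060 of the 15614 array genes with a window (13.2%) and 3 of 12 other YAP and TAZ targets. The members were picked by name, Ccn1, Ankrd1 and Amotl2 being known YAP and TAZ readouts, so this count is not a test of the motif. Ankrd1 held it in 2 places, 210 and 123 bases before the start, and the other 4 in 1 place, at 103 (Ccn1), 65 (Amotl2), 141 (Yap1) and 136 (Wwtr1) bases. The CArG box, which SRF binds, was in none of the 5 windows and in 1.45% of all. At that share most sets of 5 windows would hold none, and bases further upstream were not searched. Its absence here therefore does not show that a gene lacks an SRF site. Each stretch runs 5′ to 3′ on the gene's strand, with the motif in capitals.
Ccn1: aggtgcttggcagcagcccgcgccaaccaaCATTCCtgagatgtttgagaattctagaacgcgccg
Ankrd1: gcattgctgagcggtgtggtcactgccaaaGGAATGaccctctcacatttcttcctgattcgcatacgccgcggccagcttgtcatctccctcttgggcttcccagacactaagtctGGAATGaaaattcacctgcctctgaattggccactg
Amotl2: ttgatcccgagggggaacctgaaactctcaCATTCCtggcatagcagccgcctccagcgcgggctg
Yap1: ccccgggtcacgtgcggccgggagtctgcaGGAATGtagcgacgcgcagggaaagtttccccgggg
Wwtr1: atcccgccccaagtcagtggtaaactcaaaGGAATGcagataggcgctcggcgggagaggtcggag
They lie at chr3:145650053-145650118 on the minus strand (Ccn1), chr19:36119932-36120084 on the minus strand (Ankrd1), chr9:102717709-102717774 on the plus strand (Amotl2), chr9:8004702-8004767 on the minus strand (Yap1) and chr3:57576011-57576076 on the minus strand (Wwtr1). A match is a description of letters, not a bound site or a cause. Yap1 and Wwtr1 carry the motif as well, and their signals were the steadiest of the 9.

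Against day 0, Ankrd1, Ccn4 and Amotl2 (-1.46 ± 0.32, adjusted p = 0.0057) passed in 4F on day 8, all lower, where 15.9% of all genes passed (7.39% higher and 8.51% lower). The Amotl2 call was lost without day 0 replicate 2 (-1.37, adjusted p = 0.051) or 4F replicate 1 (-0.90, 0.085). With the replicate block 6 members passed, Ccn1 (-1.93 ± 0.56, adjusted p = 0.022, range 0.00033 to 0.63) and Wwtr1 (0.37 ± 0.12, adjusted p = 0.031, range 0.0068 to 0.56) among them with Ccn5. The share of all genes that passed with the block is not given here, so that count has no background beside it. On day 1 no member passed against day 0 in 4F, where 0.838% of all genes did (0.512% higher and 0.326% lower), nor in GFP, where 0.0903% did (0.0401% higher and 0.0502% lower).

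Yap1 and Wwtr1 encode the coactivators themselves, which are regulated mainly at the protein level, and the array reads only their RNA. Yap1 lay between 9.07 and 9.46 (median 9.17) in 4F, between 9.10 and 9.40 (median 9.27) in 3F, between 9.06 and 9.54 (median 9.31) in GFP, and at 9.19 and 9.47 on day 0. All 4 sets overlap almost fully. Its 4F difference from GFP ran from -0.20 ± 0.13 on days 1 and 3 to 0.02 ± 0.13 on day 5, and the lowest adjusted p of the 4 days was 0.39. Wwtr1 lay between 9.06 and 9.60 (median 9.29) in 4F, between 9.33 and 9.89 (median 9.53) in 3F, between 8.93 and 9.55 (median 9.14) in GFP, and at 8.95 and 9.06 on day 0. It was 0.48 ± 0.13 higher in GFP on day 8 than on day 0 (adjusted p = 0.017), a call lost without day 0 replicate 1 (0.43, adjusted p = 0.12) or GFP day 8 replicate 2 (0.42, adjusted p = 0.098). The 4F difference from GFP was 0.37 ± 0.13 on day 3 (adjusted p = 0.087) and -0.11 ± 0.13 on day 8 (0.63). Replicate error was ordinary for both: the residual SD was 0.14 for each, equal to the median of all genes, against 0.34 (Ccn4) to 1.18 (Ccn2) for the other 7. The group order of Yap1 (9.46 in 4F on day 10 to 9.10 in 4F on day 4) mixed the arms throughout.

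The gap between 4F and GFP widened between day 1 and day 8 for Ccn3 (by -3.72 ± 1.04, adjusted p = 0.039), Ccn4 (-1.68 ± 0.44, adjusted p = 0.026) and Ccn5 (-2.30 ± 0.61, adjusted p = 0.028), where 8.49% of all genes passed this test of the change (3.92% higher and 4.57% lower). It did not pass for the other 6 members. Between the paired arrays the change was -3.17 in replicate 1 and -4.26 in replicate 2 for Ccn3, -1.01 and -2.35 for Ccn4, and -1.28 and -3.32 for Ccn5. These 3 calls were sensitive to single arrays: the Ccn3 call was lost in all 8 fits that left 1 array out, the Ccn4 call in 6 and the Ccn5 call in 5, with estimates from -4.04 to -3.39, from -2.10 to -1.25 and from -2.64 to -1.96.

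Without c-Myc the CCN genes of the arm-dependent set lay between 4F and GFP. Ccn4 read 8.71, 8.64, 8.92 and 7.59 in 3F on days 3, 5, 8 and 12, and every one of the 4 lay above the 4F arrays and below the GFP arrays of its day. Ccn5 read 8.84, 9.41, 10.39 and 9.23 in 3F, with the same position on each of the 4 days. Ccn3 read 9.46, 10.18, 10.61 and 10.30 in 3F, above every 4F array of the same day, below GFP on days 8 and 12, within the GFP pair on day 3 and above it on day 5. Because the 3F arm has 1 array a day, it was compared over days 3, 5, 8 and 12 in a model of day plus arm, and its day-to-day scatter stands in for replicates. Against GFP, Ccn5 (-1.87 ± 0.34, adjusted p = 0.0013) and Ccn4 (-1.48 ± 0.25, adjusted p = 0.00072) were lower in 3F, while 18.3% of all genes passed (9.47% higher and 8.82% lower). Both passed under every alternative, with adjusted p up to 0.03 and 0.014. Ccn3 (-0.59 ± 0.50, adjusted p = 0.48) did not pass. 4F was lower than 3F for Ccn3 (-2.31 ± 0.50, adjusted p = 0.013), Ccn5 (-1.42 ± 0.34, adjusted p = 0.018) and Ccn4 (-1.18 ± 0.25, adjusted p = 0.01), where 9.63% of all genes passed (3.87% higher and 5.77% lower).

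All 3F arrays had 300 ng of RNA input. With input as a block, a fit added after seeing the data, all 3 genes still passed between 4F and 3F (Ccn3 -2.20 ± 0.55, adjusted p = 0.031, Ccn4 -1.11 ± 0.26, 0.026, and Ccn5 -1.31 ± 0.36, 0.045). The 3F arrays also carry no replicate number. A stricter block that treats arrays without a number as a set of their own, which the labels do not state, compares 3F through day 12 alone, and no member then passed (Ccn3 -1.93 ± 1.06, adjusted p = 0.72, Ccn4 -0.57 ± 0.48, 0.89, and Ccn5 -0.82 ± 0.67, 0.89). The lowest adjusted p over the alternatives was 0.0051 for Ccn3, 0.0051 for Ccn4 and 0.0096 for Ccn5, and all 3 calls were also lost without 3F day 5 or without 3F day 8. The readout genes of YAP and TAZ followed that order in part. In 3F on days 3, 5, 8 and 12, Ccn2 read 12.24, 10.13, 12.08 and 9.09, Ccn1 11.73, 10.77, 11.69 and 9.55, Ankrd1 8.49, 7.46, 7.71 and 5.71, and Amotl2 9.46, 9, 9.21 and 7.54. On days 3, 5 and 8 all 4 genes read higher in 3F than on both 4F arrays. Ankrd1 lay between the 4F and GFP means on those 3 days, and Amotl2 lay between the arrays of both arms on days 3 and 5. On day 12, with 1 array an arm, all 4 read lower in 3F than in 4F. Against GFP their 3F differences were 0.37 ± 0.76 for Ccn2, -0.10 ± 0.51 for Ccn1, -0.44 ± 0.60 for Ankrd1 and -0.46 ± 0.28 for Amotl2. None passed, except Amotl2 with the block (-1.56 ± 0.40, adjusted p = 0.024, range 0.024 to 0.77).

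**Figure D3:**
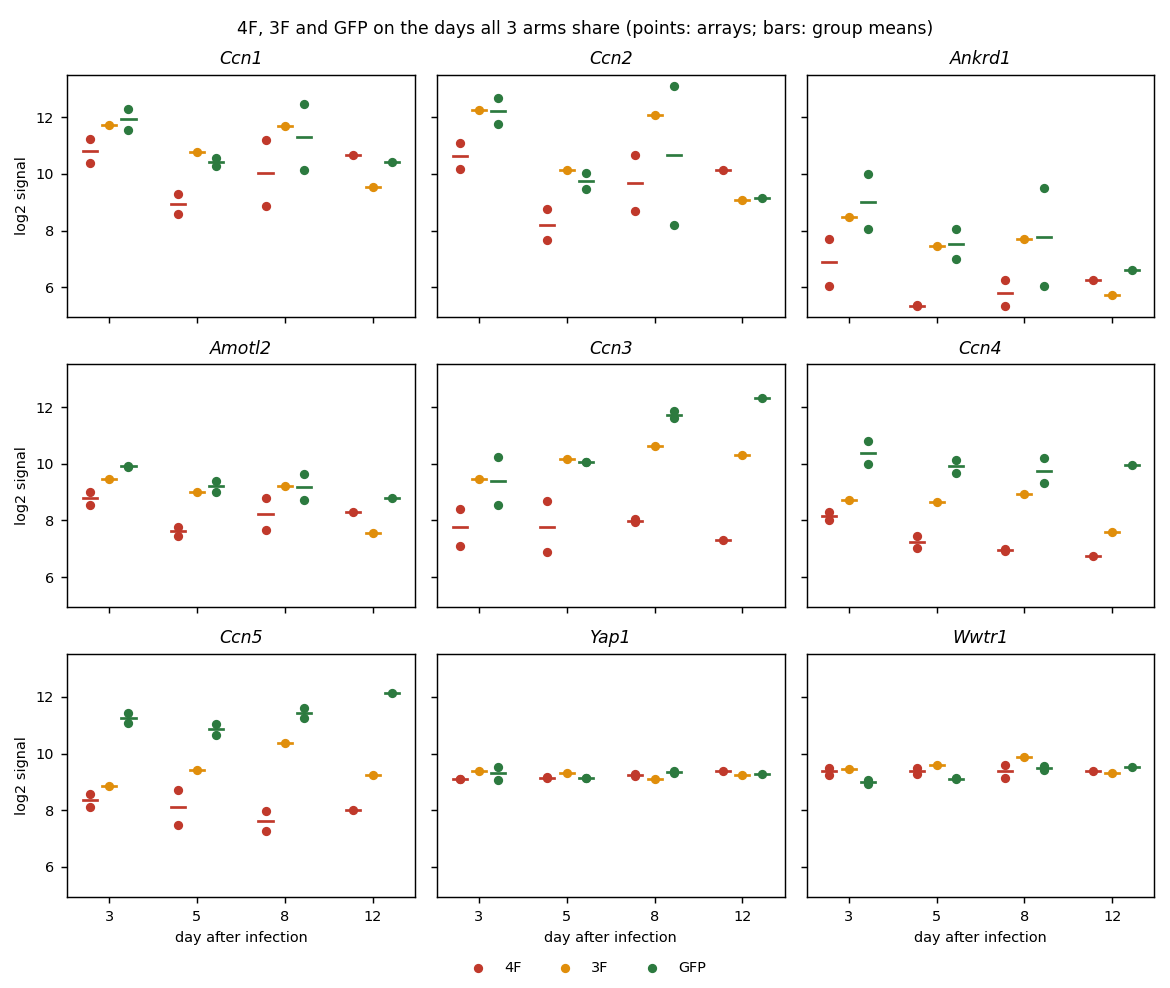
Log2 signal (vertical axis) of each member in 4F, 3F and GFP, left to right, on the days all 3 arms share (horizontal axis, days 3, 5, 8 and 12), with points for arrays and short bars for group means. Ccn4 and Ccn5 of 3F lie between 4F and GFP on all 4 days, and on day 12 Ccn1, Ccn2, Ankrd1 and Amotl2 of 3F lie below 4F.

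The largest gaps between paired arrays fell on day 8. In GFP on day 8, replicate 2 exceeded replicate 1 by 4.93 for Ccn2, 3.46 for Ankrd1, 2.35 for Ccn1 and 0.92 for Amotl2. In 4F on day 8 the same gap was 1.95 for Ccn2, 0.93 for Ankrd1, 2.33 for Ccn1 and 1.12 for Amotl2. Both pairs thus moved the same way in both arms, while Yap1 differed by 0.09 within the GFP pair and -0.07 within the 4F pair. Srf, the serum response factor, was 1.33 higher in replicate 2 in GFP and 1.01 higher in 4F. Over the 12 groups with 2 arrays, the replicate differences of Ccn1 and Ccn2 correlated with r = 0.89. Those of Ccn1 and Srf gave r = 0.92 and those of Ccn1 and Amotl2 r = 0.87. All of these values rest in part on the day 8 pairs. Over the 19 group means, r was 0.57 for Ccn1 with Srf. A list of 14 immediate-early genes (Fos, Egr1 and the like), drawn up after these values were seen, averaged 8.54 on 4F day 8 replicate 2, 8.70 on 3F day 8 and 8.78 on GFP day 8 replicate 2, against 6.91 to 8.01 on every other array. The part of the RNA input and of these genes in the gaps was not tested. For Ccn2 they set the sign of a comparison: 4F minus GFP on day 8 was 0.52 in replicate 1 but -2.47 in replicate 2 (-0.97 ± 1.06 over both, adjusted p = 0.59). Without GFP day 8 replicate 1 the difference was -3.44, and without GFP day 8 replicate 2 it was 1.49. Such a fit sets both replicates of 1 arm against a single replicate of the other, so the gap between replicates enters the difference. Without GFP day 8 replicate 1 the difference was -3.72 for Ankrd1 and -2.44 for Ccn1. For Ccn1 it was also -2.44 without 4F day 8 replicate 2. Within pairs, Ccn1 on day 8 read 8.87 in 4F against 10.14 in GFP in replicate 1, and 11.21 against 12.48 in replicate 2. Ccn4 and Ccn5 passed on day 8 with or without these arrays: with the replicate 2 arrays of day 8 left out, a choice made after seeing the data, the difference was -2.43 for Ccn4 (adjusted p = 0.00089) and -3.28 for Ccn5 (0.002). Day 8 then has 1 array an arm, and these p-values assume that it varies as the other groups do.

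**Figure D4:**
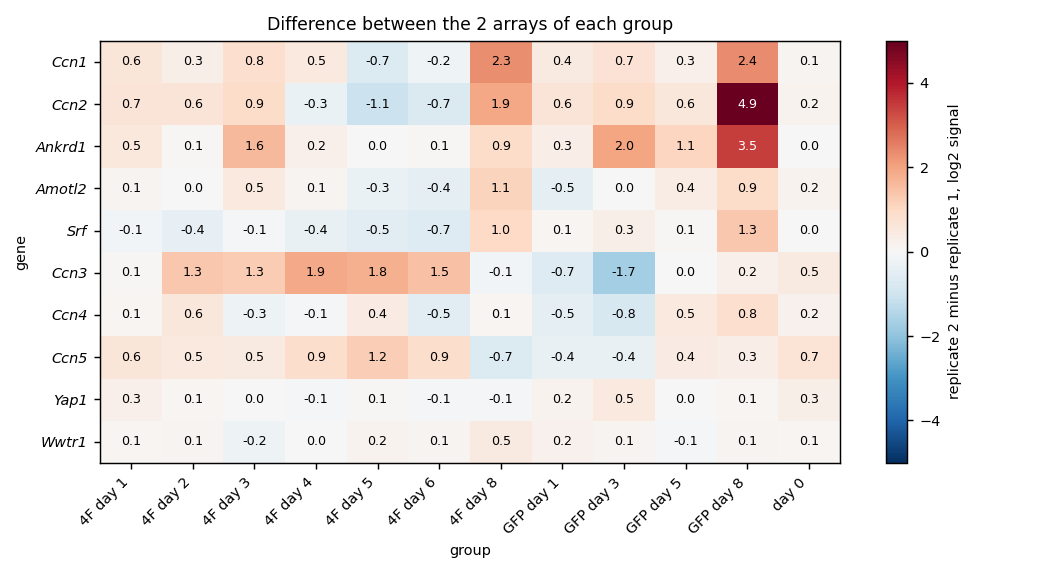
Difference between the 2 arrays of each group, replicate 2 minus replicate 1, in log2 signal (colour scale and printed value), for the members and Srf (rows) and the 12 groups with 2 arrays (columns). Ccn1, Ccn2, Ankrd1, Amotl2 and Srf are higher in replicate 2 on day 8 of both arms, by up to 4.93 for Ccn2 in GFP, and Ccn3 and Ccn5 are higher in replicate 2 of 4F on days 2 to 6.

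Across the 19 group means the correlations ran in part along the sets described above, which were drawn from these same values. Pearson's r was 0.95 for Ccn1 with Ccn2, 0.94 for Ankrd1 with Amotl2, 0.93 for Ccn1 with Amotl2 and 0.89 for Ccn1 with Ankrd1. It was 0.87 for Ccn4 with Ccn5 and 0.86 for Ccn3 with Ccn5, against 0.10 for Ccn2 with Ccn3 and 0.27 for Ccn2 with Ccn5. Ccn4 stood between the sets, with r = 0.81 for Amotl2 and 0.78 for Ankrd1, against 0.67 for Ccn3. Yap1 reached at most 0.46 with any other member (Ccn1), and Wwtr1 at most 0.34 (Ccn3). These values describe group means that share arms, days and RNA inputs. The genes closest to each member by the same measure were Klf6 (0.944) and Csrp1 (0.930) for Ccn1 after Ccn2, and Tnfrsf12a (0.944) and Ptgs2 (0.942) for Ccn2 after Ccn1. For Ankrd1 they were Inhba (0.971), Peak1 (0.965) and Ptpn21 (0.958), and for Amotl2 they were Ankrd1, Ccn1 and Ppp1r18 (0.919). Ccn4 was closest to Lox, which cross-links collagen (0.986), Vmp1 (0.974) and Osbpl5 (0.972), and Ccn5 to Bmp1, which trims procollagen (0.973), Hif1a (0.968) and Fkbp14 (0.963). Ccn3 was closest to Glb1l (0.963), Olfml3 (0.960) and Matn2 (0.954). The nearest to Yap1 were Cyp2d13 (0.840), Myo18a (0.808) and Wnt7a (0.791), and to Wwtr1 Usp53 (0.926), Reps2 (0.898) and Dbi (0.896). Over single arrays these fell to 0.53, 0.443 and 0.217 for Yap1 and to 0.787, 0.835 and 0.812 for Wwtr1. For the other members they stayed at 0.877 or more.

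Other YAP and TAZ targets mostly went the same way. Of 18 further target genes, 13 were lower and 2 higher in 4F with the days averaged, against 18.7% lower and 18.8% higher of all genes, and the list median was -0.63 (against -0.03 over all genes). Lower were F3, the tissue factor that starts coagulation (-2.22 ± 0.32, adjusted p = 4.5e-05), Crim1 (-1.58 ± 0.14) and Igfbp3, which binds insulin-like growth factors (-1.39 ± 0.18). Higher were Nt5e, the ectonucleotidase CD73 (2.56 ± 0.16, adjusted p = 1.4e-08), and Dock5 (1.37 ± 0.10). Both were also higher in 3F than in GFP (3.66 for Nt5e and 1.95 for Dock5, adjusted p = 1.6e-06 and 3.1e-08). Igfbp3 was 4.05 higher in GFP on day 8 than on day 0 (adjusted p = 4.6e-06). Against GFP in 3F, 5 of the 18 were lower and 2 higher, where 8.82% of all genes were lower and 9.47% higher, so the higher count is near the share of all genes.

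Partners and regulators of YAP and TAZ differed by less. Of the 4 TEAD genes and 4 Vgll cofactor genes, Tead1 (-0.68 ± 0.09, adjusted p = 1.2e-05), Tead3 (-0.50 ± 0.08), and Vgll3 (-0.94 ± 0.17) were among 4 lower in 4F, and Tead4 (0.29 ± 0.07, adjusted p = 0.0054) was higher. Tead2 (0.21, adjusted p = 0.19) passed with the replicate block (0.01). Tead1 correlated with Ankrd1 (r = 0.91) and Amotl2 (r = 0.86) over the 19 group means, which share arms and days. Over the replicate differences of the 12 paired groups, r was only 0.05 with Ankrd1 and 0.07 with Amotl2. Of 18 measured Hippo kinases and adaptors, 3 were higher and 6 lower, and the list median was -0.14. With 18.8% of all genes higher and 18.7% lower, 3 higher of 18 is near the share of all genes. Nf2, the tumour suppressor merlin, rose most (0.90 ± 0.05, adjusted p = 3e-09, and 1.54 on day 8), followed by Wwc1 or KIBRA (0.67 ± 0.12) and the kinase Stk4 (0.20 ± 0.06). Frmd6 (-0.71 ± 0.12), the kinase Lats2 (-0.50 ± 0.12) and Wwc2 (-0.40 ± 0.09) led the falls. Lats2 is counted among the targets as well. Stk3 was not measured on a row of its own. Among relatives of the members, Amot (-0.75 ± 0.06), Amotl1 (-0.33 ± 0.07) and Ankrd2 (-0.21 ± 0.05) were lower in 4F, and Ankrd23 (-0.10, adjusted p = 0.32) and Ccn6 (-0.05, adjusted p = 0.58) did not pass. Of the SRF genes, Mrtfa was lower (-0.60 ± 0.08, adjusted p = 4e-05). Srf (-0.07 ± 0.18, adjusted p = 0.8), Mrtfb (-0.08 ± 0.06, adjusted p = 0.37) and Myocd (-0.03 ± 0.06, adjusted p = 0.75) did not pass.

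**Figure D5:**
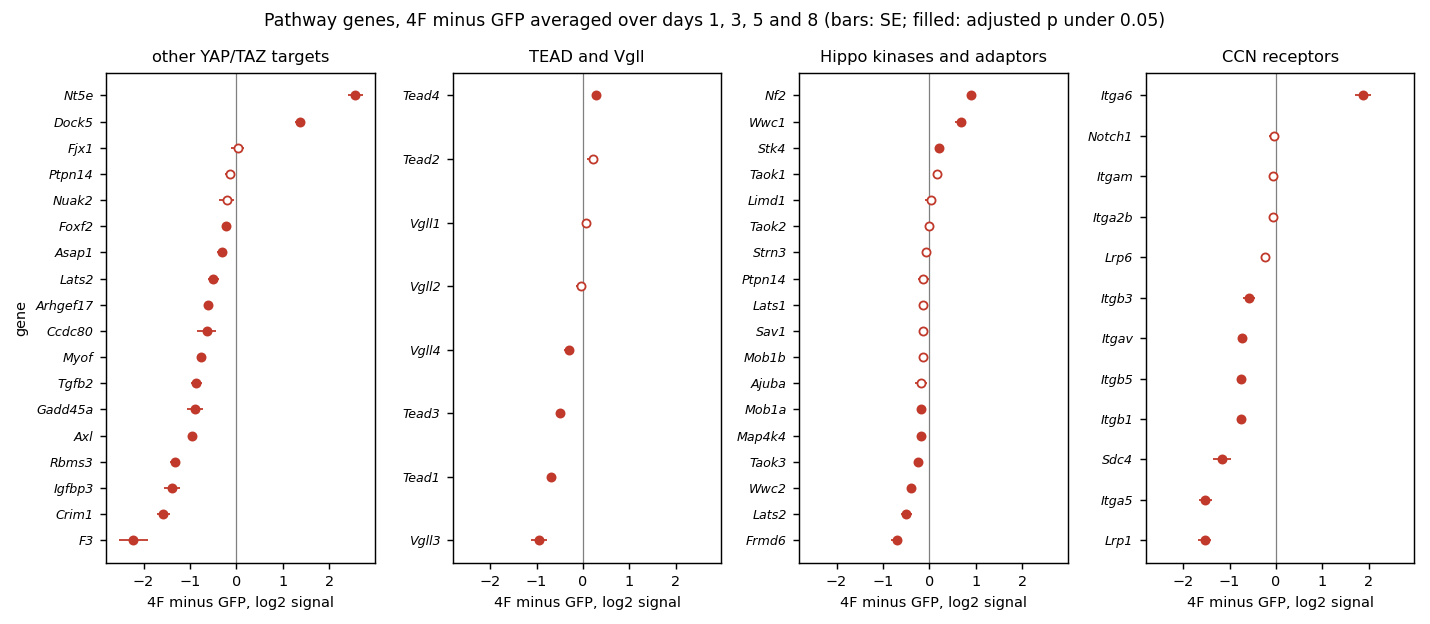
Difference 4F minus GFP in log2 signal averaged over days 1, 3, 5 and 8 (horizontal axis) for the other YAP and TAZ targets, the TEAD and Vgll genes, the Hippo kinases and adaptors and the CCN receptors (panels, 1 gene per line), with bars for SE and filled points for an adjusted p under 0.05. Lower calls outnumber higher ones in every panel, with Nt5e (2.56), Itga6 (1.87), Dock5 (1.37) and Nf2 (0.90) furthest to the right.

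Receptors and inputs of the CCN genes were also lower for the most part. Of all genes, 18.7% were lower and 18.8% higher in 4F with the days averaged. Of 12 CCN receptor genes, 7 were lower in 4F: the endocytic receptor Lrp1 (-1.54 ± 0.14, adjusted p = 5.2e-07), the fibronectin receptor chain Itga5 (-1.52 ± 0.13), the proteoglycan Sdc4 (-1.17 ± 0.19) and 4 integrin chains between -0.75 and -0.59. The laminin receptor chain Itga6 was higher (1.87 ± 0.17, adjusted p = 3.9e-07), and higher in 3F as well (2.58, adjusted p = 1.5e-06). Of 11 measured genes of TGF-beta signalling, which is known to induce Ccn2, 6 were lower and none was higher. The receptors Tgfbr3 (-2.25 ± 0.15) and Tgfbr2 (-1.33 ± 0.14) and the ligand Tgfb3 (-2.10 ± 0.18) led, and the other 3 lay between -0.89 and -0.61.

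Cell type markers moved with these results. Of 10 fibroblast markers, 9 were lower in 4F with the days averaged (median -1.61), all but Vim (-0.13 ± 0.06, adjusted p = 0.12, and 0.0047 with the replicate block). Their summed linear signal ran from 16000 to 29500 in 4F, 28400 to 38500 in 3F, 34900 to 70600 in GFP and 31700 to 32900 on day 0. Such sums, here and below, are led by the genes with the strongest signal. Each range pools all days of its arm, and the days differ between arms. In GFP on day 8, Dcn (4.30), Col3a1 (2.95) and Pdgfra (2.51), named after their values were seen, stood above day 0. These are only some of the 10 fibroblast markers, and how the others stood in that comparison is not given here. Of the smooth muscle markers, Acta2 (-1.01), Tagln (-1.76), Cnn1 (-1.5) and Myh11 (-0.5) read lower there and Mylk (0.35) higher, and none passed. All 5 smooth muscle markers were lower in 4F (median -1.01), summed from 2320 to 11400 in 4F, 3910 to 10900 in 3F, 2600 to 16100 in GFP and 10900 to 14200 on day 0. Of 8 pluripotency markers 5 were higher, summed from 345 to 4900 in 4F, 408 to 4820 in 3F, 336 to 435 in GFP and 366 to 370 on day 0. Of 7 epithelial markers 4 were higher, summed from 456 to 5880 in 4F, 476 to 3410 in 3F and 402 to 490 in GFP. Endothelial markers had 1 higher and 1 lower of 7 (list median -0.06). The higher one was Tek (2.28 ± 0.13, adjusted p = 6.1e-09) and the lower one Emcn (-0.33 ± 0.06, adjusted p = 0.00053). Macrophage markers had 4 lower of 7 (-0.15) and skeletal muscle markers 2 lower of 7 (-0.01). With the days averaged, 18.8% of all genes were higher and 18.7% lower in 4F. The endothelial and skeletal muscle counts are near those shares. The part of a changing cell mix in the member results was not tested.

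The delivered genes gave a limited check of the arms. Pou5f1, the gene of Oct4, was higher in 4F with the days averaged (1.83 ± 0.20, adjusted p = 3.3e-06), reaching 8.37 and 9.58 on day 8 in 4F against 5.26 and 5.47 in GFP. Sox2 was higher as well (0.95 ± 0.17, adjusted p = 0.0003). Klf4 was lower in 4F (-0.64 ± 0.13, adjusted p = 0.00091) and Myc did not pass (-0.90 ± 0.38, adjusted p = 0.076), except with the replicate block (0.0065), with differences of -0.80 and -1.01 in the 2 replicates. On day 1 Pou5f1 read 6.30 and 6.25 in 4F, against 5.57 and 5.60 in GFP. Whether these probe sets detect the viral transcripts was not tested, so they do not settle the dose of any factor.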

How the data were processed

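The 31 RNA samples were labelled as biotinylated cRNA and hybridised to 1 Affymetrix array each, per the labels' protocols. The deposited values are log2 signals per probe set, already normalized by the authors, with a median of 6.04 to 6.17 per array. Its method was not given in the sources used here. Precision is limited by the number of arrays. Of 28853 probe sets, 21789 carry 1 symbol, 1621 several and 5443 none in the platform annotation. Genes with several probe sets (999) kept the one with the highest mean, which left 19938. Whether probe sets share signal between related genes was not examined.

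Here limma 3.58.1 in R 4.3.3 fitted 19 group means over the 31 arrays (12 residual degrees of freedom), and day plus arm over the 18 arrays of days 3, 5, 8 and 12. P-values were adjusted by Benjamini-Hochberg over all genes. The scripts were tested on simulated data. Alternatives were a replicate block, quantile normalization, a filter on genes whose mean was below 6 in every group, a trended prior, the mean over probe sets and each array left out. The labels do not state a shared batch or litter, but replicate 1 had 120 ng of RNA input and all other arrays 300 ng, so the replicate number was fitted as a block for that technical difference. Deviations of same-numbered arrays correlated above 0.1 in 65 of 66 pairs of groups (median 0.32, range 0.0808 to 0.686). For 3F, input itself was also fitted as a block. No 2 arrays held identical values. The members and lists were chosen with earlier results of these data known. Named genes are the members, the delivered factors, the 3 genes most correlated with each member and lists of 5 or fewer genes whole. Of longer lists the 3 largest called rises and falls are named, except for the cell type markers. Those longer marker lists are given mainly as counts, with only some genes named. RefSeq promoter windows cover 250 bases before the start.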

Additional observations from a re-analysis of the deposited data

Results flagged for a closer look

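The 4F difference from GFP changed between day 1 and day 8 for 3 CCN genes, by the test of the change itself in limma. The day 8 difference minus the day 1 difference was -3.72 for Ccn3 (-3.74 on day 8 and -0.02 on day 1), -1.68 for Ccn4 (-2.81 on day 8 and -1.14 on day 1) and -2.30 for Ccn5 (-3.80 on day 8 and -1.5 on day 1). Both replicates showed that direction for all 3 genes, more strongly in replicate 2. Without the day 8 replicate 2 arrays of 4F and GFP, none of the 3 calls held. Each call was lost in at least 5 of the 8 fits that left out 1 array.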

How the results depend on the processing

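Under alternatives other than leaving out 1 array, 714 of 774 values for single genes kept their direction and side of the threshold, 18 changed sign, 13 lost and 29 gained a call. With 1 array left out, 900 of 1026 kept both, 41 changed sign, 65 lost and 20 gained a call. The cause of the changes was not tested. With the replicate block, the genes that passed numbered 924 (4F against GFP, day 1), 3749 (day 3), 2820 (day 8 minus day 1), 369 (4F day 1 against day 0), 143 (GFP day 1 against day 0), 2375 (time in 4F), 3315 (time in GFP) and 14 (4F against 3F). The members that passed with the block numbered 1 (day 1), 5 (day 3), 1 (4F day 1 against day 0), 6 (4F day 8 against day 0) and 0 (4F against 3F). For 4F day 8 against day 0 the number of all genes is not given here. The block turned the sign in 3F against GFP for Ccn2 (-1.07) and Wwtr1 (-0.05), and in 4F against 3F for Ccn1 (0.46), Ccn2 (0.04), Amotl2 (0.44), Yap1 (0.08) and Wwtr1 (0.19). As a random effect it left 1018 genes for 4F against 3F and ended the Ccn5 call (adjusted p = 0.053, range over the alternatives 0.0096 to 0.89). Quantile normalization turned Wwtr1 in 4F against GFP on day 1 (-0.03) and Yap1 in 4F day 8 against day 0 (0.02), and 30 genes passed for GFP day 1 against day 0. 3 alternatives were added after seeing the data. With RNA input as a block, Ccn2 in 3F against GFP read -0.20, and 1308 genes and 3 members passed for 4F against 3F. Without the day 8 replicate 2 arrays of 4F and GFP, Ccn2 read 0.52 on day 8. The change between days 1 and 8 then had 0 members past the threshold, against 3 as reported, with Ccn2 at 0.36 and Ankrd1 at 0.51. Yap1 then read -0.02 for GFP day 8 against day 0, and in 3F against GFP Ccn1 read 0.15 and Yap1 0.01. Without day 8, 2133 genes passed for 3F against GFP (Ccn2 at 0.00 and Yap1 at 0.07), and 179 genes and 0 members for 4F against 3F.

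With 1 array left out, values ran as follows. Leaving out 1 array of a pair unbalances the replicate numbers, so the gap between replicates enters these values. For 3F against GFP, Ccn1 ran from -0.34 to 0.29, Ccn2 from -0.15 to 0.80 and Yap1 from -0.08 to 0.06. For 4F against 3F, 440 (without 3F day 5) to 2848 genes and 0 to 4 members passed, and Yap1 ran from -0.13 to 0.01. For 4F day 1 against day 0, 29 to 61 genes passed, with Ccn3 from -0.18 to 0.29 and Yap1 from -0.24 to 0.04. For 4F day 8 against day 0, 1958 to 2708 genes passed, with Yap1 from -0.22 to 0.06. For GFP day 1 against day 0, 3 to 42 genes passed, with Ccn3 from -0.25 to 0.40, Ccn4 from -0.06 to 0.42, Yap1 from -0.04 to 0.24 and Wwtr1 from -0.03 to 0.17. For GFP day 8 against day 0, Ccn1 ran from -1.83 to 0.51, Ccn2 from -4.29 to 0.64 and Yap1 from -0.12 to 0.16. For 4F against GFP on day 1, 23 to 308 genes passed, with Ccn2 from -0.18 to 0.49, Ccn3 from -0.35 to 0.31 and Wwtr1 from -0.07 to 0.14. On day 3, 1134 to 2384 genes passed, with Yap1 from -0.44 to 0.04. On day 5, 2427 to 3508 genes passed, with Yap1 from -0.01 to 0.05. On day 8, 3 to 7 members passed, with Ccn2 from -3.44 to 1.49 and Wwtr1 from -0.34 to 0.12. With all arrays kept, 27.6% of all genes passed on day 8. The number of all genes in these day 8 fits is not given here, so that range of members has no background beside it. For the change from day 1 to day 8, 922 to 1578 genes and 0 to 3 members passed, with Ccn1 from -1.96 to 0.39, Ccn2 from -3.60 to 1.34, Ankrd1 from -2.48 to 0.98, Amotl2 from -0.80 to 0.32, Yap1 from -0.03 to 0.23 and Wwtr1 from -0.37 to 0.08. For time, 518 to 1382 genes and 0 to 2 members passed in 4F, and 1098 to 1845 genes and 0 to 2 members in GFP.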
